A study of Mus musculus with 2 samples.

Results

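Activity-induced transcription factors of the AP-1 and EGR type and their companions, 10 genes in all, were examined in sensory neuron preparations from mouse dorsal root ganglia (DRGs), the clusters of sensory nerve cell bodies beside the spinal cord. They were chosen by gene symbol, out of 24411 genes in the data, with their levels in these same libraries already known, so every level and ratio below is a description and not a test. The 10 members comprise the FOS-type genes Fos, Fosb and Fosl2, the JUN-type genes Jun, Junb and Jund, and Atf3, Egr1, Npas4 and Nr4a1. Male mice, labelled C57BL/6 and by the study's methods C57BL/6J of 6 to 8 weeks of age, received intraperitoneal injections on days 0 and 14 of either 50% alum, an aluminium salt adjuvant, or the same alum with keyhole limpet hemocyanin (KLH), a foreign protein antigen. DRGs of the chest and lumbar levels were taken 14 days after the second injection, digested with enzymes, enriched for neurons by spinning through albumin, depleted of B lymphocytes with beads and taken up in medium that held nerve growth factor. The libraries were made with a strand-marking mRNA kit. RNA of 10 mice was pooled into a single library per group, so there are 2 libraries in all, and how far mice differ from each other is not known. The control library is labelled both naïve and as having had alum alone, and it is called alum-injected here, as in the methods.

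Most of the members belong to the immediate early genes. Cells switch such genes on within minutes of calcium entry, growth factor signals or stress, without making new protein first. FOS and JUN proteins join through a leucine zipper into the AP-1 factor. JUN proteins can also pair with each other, whereas FOS proteins need a JUN partner. In sensory neurons, Fos and Egr1 are used as marks of recent activity, and Jun and Atf3 are known as genes that nerve injury turns on.

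The preparations carried the markers their label implies. All 11 neuron markers were above 3 TPM, the detection limit of the study, in both libraries. TPM divides the reads of a transcript by its length and scales each library to the same sum, 1000000, so levels of different genes can be compared, but the number of reads is lost. Glia were present too, with 7 of 8 satellite glia and 7 of 10 Schwann cell markers above the limit in both libraries. None of 12 macrophage markers reached it, and their summed level was 8.41 TPM in the alum-injected and 7.85 TPM in the alum + KLH-immunized library. In such mixed RNA, fewer cells of a type and less RNA per cell cannot be told apart, and which cells carried the members is not known from these values.

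Of the 10 members, 9 were above 3 TPM in both libraries, and their levels spanned a wide range. Fos, a classic partner of JUN in AP-1, was the highest at 454 TPM in the alum-injected library and 417 TPM in the alum + KLH-immunized library. Only 1.61% and 1.81% of all genes had a higher level. Atf3, a stress-induced relative of CREB that can pair with JUN, followed at 238 and 219 TPM. Egr1, a zinc-finger factor also called Zif268 or Krox-24, was at 149 and 142 TPM. These were the highest members, and 6.06% and 6.32% of all genes exceeded even Egr1. The ganglia had been digested with enzymes before RNA was taken, and no library of undigested ganglia was analysed. Levels present in the mice and levels induced by handling can therefore not be told apart, for any member.
Jun, the founding JUN-type gene, was at 117 TPM in the alum-injected library and 94.5 TPM in the alum + KLH-immunized library. Fosb was at 73.4 and 64.8 TPM in the same order. Fosl2, which encodes FRA-2, was at 61.4 and 64.5 TPM and was the sole member with the higher value in the immunized library. A gap separated this group from the low members. Jund, the JUN-type gene that many resting cells express, was at 16.7 and 13.9 TPM.
Nr4a1, an orphan nuclear receptor also called Nur77, was at 8.12 and 5.86 TPM. Junb was at 7.82 and 6.26 TPM. Npas4, a factor restricted to neurons and dependent on calcium entry, was far below the limit at 0.424 and 0.248 TPM, and 62.7% and 65.8% of all genes exceeded it. The order of the levels was the same in both libraries except that Nr4a1 and Junb changed places. On the log2(TPM + 1) scale those neighbours differed by 0.049 and -0.081, less than the spread of 0.22 described with the ratios. The gap between Fosb and Fosl2 was 0.0053 in the alum + KLH-immunized library, below a spread of 0.15, and 0.25 in the alum-injected library, above it. The other neighbours in the order were further apart than that spread in both libraries. The spread is that of ratios between the libraries. It is no measure of error for the gap between genes within a library and gives a scale only.

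**Figure D1:**
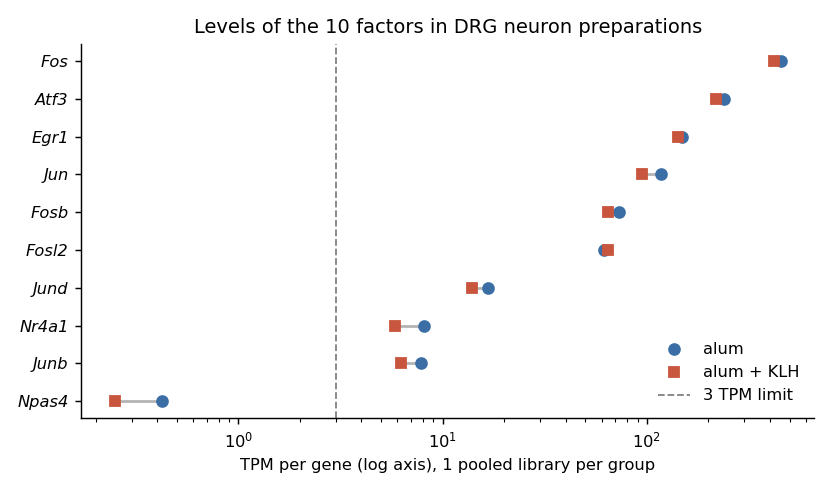
TPM per gene on a log axis for the 10 members, with a circle for the alum-injected and a square for the alum + KLH-immunized library (1 pooled library each, no error bars) and a dashed line at 3 TPM. Fos is the highest at 454 and 417 TPM, Npas4 is the only member left of the line, and the paired symbols lie close together compared with the range between genes.

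Summed over the AP-1 genes, FOS-type transcripts outnumbered JUN-type transcripts. The 4 FOS-type genes, with Fosl1 added, summed to 590 TPM in the alum-injected library and 547 TPM in the alum + KLH-immunized library, and the 3 JUN-type genes to 141 and 115 TPM. The ratio of FOS-type over JUN-type transcripts was 4.17 and 4.77, with base composition, described below, not taken into account. Fos alone made up 62.1% and 63.1% of the AP-1 total. Among JUN-type genes Jun took the largest share, with 16.0% and 14.3% of the AP-1 total against 2.28% and 2.10% for Jund and 1.07% and 0.946% for Junb. Fosl1, which encodes FRA-1, was nearly missing at 0.762 and 0.136 TPM. These are transcript shares and say nothing of the amounts of protein.

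**Figure D2:**
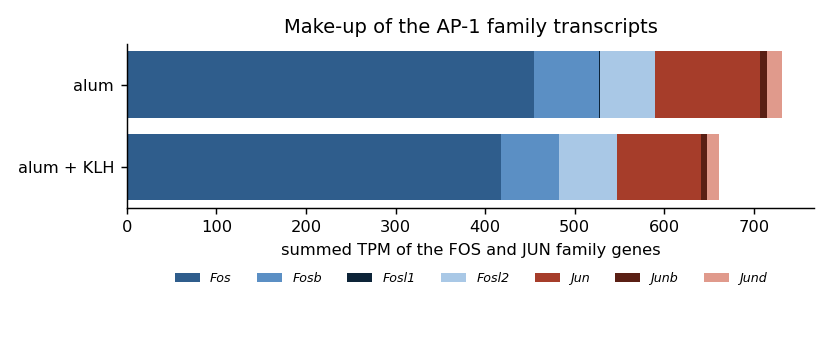
Stacked bars of summed TPM for the FOS-type genes (blue) and JUN-type genes (red) in each pooled library. Fos fills 62.1% of the alum-injected and 63.1% of the alum + KLH-immunized bar, and the whole bar is 731 TPM in the former and 662 TPM in the latter.

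Relatives of the members differed in level from them. Egr1 supplied 79.8% of the summed TPM of the 4 EGR genes in the alum-injected library and 77.5% in the alum + KLH-immunized library. Egr2, which Schwann cells use to drive myelination, was at 22.8 and 25.5 TPM, and Egr3 at 14.7 and 15.4 TPM. Egr4 was at 0.370 and 0.238 TPM. Nab1 and Nab2 encode corepressors that bind EGR proteins and were at 54.4 and 52.5 TPM and at 1.54 and 1.11 TPM. Within the NR4A receptors Nr4a1 was the lowest, because Nr4a2 was at 12.4 and 11.7 TPM and Nr4a3 at 15.7 and 15.6 TPM. The dimer partners of NPAS4 were expressed although Npas4 was below the limit, with Arnt at 24.7 and 24.1 TPM and Arnt2 at 19.0 and 16.2 TPM. Of 18 other bZIP genes, a list that includes Atf3, 13 were above 3 TPM in both libraries. Atf3 was the highest of them.

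The members are compact genes, and most rest on a single deposited row. On GRCm38, the assembly also called mm10, the Fos transcript lies on chromosome 12 from 85473890 to 85477273 on the plus strand in 4 exons, Fosb on chromosome 7 from 19302696 to 19310051 on the minus strand in 4 exons, and Fosl2 on chromosome 5 from 32135801 to 32157842 on the plus strand in 4 exons. The JUN-type genes have no introns. Jun lies on chromosome 4 from 95049034 to 95052222 on the minus strand, Junb on chromosome 8 from 84976910 to 84978718 on the minus strand, and Jund on chromosome 8 from 70698949 to 70700616 on the plus strand. Atf3 lies on chromosome 1 from 191170296 to 191183340 on the minus strand in 4 exons, Npas4 on chromosome 19 from 4984355 to 4990316 on the minus strand in 8 exons, and Nr4a1 on chromosome 15 from 101266846 to 101274795 on the plus strand in 7 exons.
Jund has 2 rows, and both held the same value, 8.33 TPM in the alum-injected library and 6.96 TPM in the alum + KLH-immunized library, so only their sum is used. The annotation ties both rows to the same GENCODE transcript. Jund is also the least certain member, since 50.1% of the 31-base words of its transcript also occur, on the opposite strand, in the antisense gene Gm11175, which has no row in the files. For Jun this share was 6.39%, shared with the antisense gene Junos. Whether the quantification used the strand is not given in the sources used here. For Fosb, RefSeq lists 2 curated transcripts of which 1 has a row, so full-length FosB and its truncated splice form cannot be told apart here.

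Upstream sequence is shown for Fos, the highest member, and for Jun, Junb and Nr4a1, the members with the lowest ratios between the libraries. Each line gives the 250 bases before the RefSeq start on GRCm38.p6, read 5′ to 3′ on the gene's own strand, at chr12:85473640-85473889 (plus) for Fos, chr4:95052223-95052472 (minus) for Jun, chr8:84978749-84978998 (minus) for Junb and chr15:101266596-101266845 (plus) for Nr4a1. Capitals mark the motifs that were searched on both strands and found.
Fos: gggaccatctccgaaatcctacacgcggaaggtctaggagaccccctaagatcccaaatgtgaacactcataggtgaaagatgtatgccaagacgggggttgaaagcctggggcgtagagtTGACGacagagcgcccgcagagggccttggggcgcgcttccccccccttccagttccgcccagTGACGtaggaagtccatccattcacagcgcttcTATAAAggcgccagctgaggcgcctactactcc
Jun: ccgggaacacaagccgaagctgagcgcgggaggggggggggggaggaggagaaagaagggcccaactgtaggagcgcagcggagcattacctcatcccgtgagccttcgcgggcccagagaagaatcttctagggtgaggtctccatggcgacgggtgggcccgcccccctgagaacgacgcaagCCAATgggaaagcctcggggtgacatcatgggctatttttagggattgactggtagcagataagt
Junb: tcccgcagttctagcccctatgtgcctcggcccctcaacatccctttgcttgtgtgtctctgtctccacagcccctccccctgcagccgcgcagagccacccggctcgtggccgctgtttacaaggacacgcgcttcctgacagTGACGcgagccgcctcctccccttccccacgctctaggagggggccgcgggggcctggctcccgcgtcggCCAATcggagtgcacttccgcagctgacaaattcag
Nr4a1: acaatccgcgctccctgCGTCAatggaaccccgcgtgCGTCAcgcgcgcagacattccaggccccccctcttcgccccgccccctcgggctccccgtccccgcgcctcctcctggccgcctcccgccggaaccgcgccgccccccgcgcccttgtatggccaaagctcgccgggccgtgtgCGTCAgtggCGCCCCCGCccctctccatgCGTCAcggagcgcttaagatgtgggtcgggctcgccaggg
In these letters, the core TGACG of the cAMP response element, the site through which CREB acts, is in capitals 2 times in Fos, 1 time in Junb and, as its reverse complement CGTCA, 4 times in Nr4a1. Jun has none in this window. The core was sought after the windows had been seen, because the full element TGACGTCA was in none of the 9 members with a window. It occurred in 6 of these 9 (Fos, Fosb, Junb, Atf3, Npas4 and Nr4a1) and in 20.8% of all 32851 windows of 300 bases. The EGR site GCGNGGGCG was in 3 of 9 (Fosb, Fosl2 and Nr4a1) against 5.55% of all windows, and it is the run CGCCCCCGC of the Nr4a1 line. A TATA box, TATAAA, began 33 bases before the start in Fos. It was in 2 of 9 members, Fos and Junb, against 13.6% of all windows, and in Junb it lies at the RefSeq start, past the end of the printed line. CCAAT was in 3 of 9 (Jun, Junb and Atf3) against 37.4%. Neither the AP-1 site TGANTCA nor the CArG box of serum response factor was in any of the 9, against 7.81% and 1.63% of all windows. Sites outside these windows, or with other letters, were not sought, and Egr1 had no window. The genes may therefore hold such sites elsewhere. A match is a string of letters, not a bound site. The shares over all windows were not matched for base composition. The 3 members with an EGR site had 64.4 to 74.4% G and C bases in the 250 bases before the start. The Jund and Junb windows lie around RefSeq starts that are upstream of the GENCODE transcripts. For Junb, the place of the TATA box is thus given from the RefSeq start and not from the GENCODE start.

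The remaining question was whether the members differed between the alum + KLH-immunized and the alum-injected library. Both were made from ganglia taken 14 days after the booster and then digested. None of the 9 members above 3 TPM was 1.5-fold apart. The ratio was taken as log2 of (TPM + 1) in the alum + KLH-immunized over (TPM + 1) in the alum-injected library, which understates differences of low genes. At this fold, 0 of the 9 members above 3 TPM were higher, where 1.00% of all 11648 genes above 3 TPM in at least 1 library were, and 0 of 9 were lower, where 1.55% were. With 1 library per group no p-value can be given, and these shares are the background against which the counts are read.
Below that fold the members lay mostly to the same side. Of the 9, 8 had a log2 ratio below 0, where 56.4% of all genes did, and their median was -0.18 against -0.020 over all genes. Nr4a1 had the lowest ratio at -0.41, followed by Jun at -0.30, Junb at -0.28 and Jund at -0.24. The FOS-type members were at -0.18 for Fosb, -0.12 for Fos and 0.071 for Fosl2, all above the JUN-type members, an order that was lost when base composition was taken into account below. Atf3 was at -0.12 and Egr1 at -0.072. Npas4, below 3 TPM in both libraries, was at -0.19 and is not counted among the 9. Without the added 1 TPM its level differed by -41.5%, between values too low to be read closely. The sign for Fosl2 turned to -0.013 when levels were expressed relative to Hprt.
For want of replicates, each member was also set against how widely the ratios of the 500 genes nearest to it in level scattered (their SD), which describes genes in these 2 libraries and not mice. The ratio exceeded this SD for 4 of the 9, namely Jun with an SD of 0.13, Nr4a1 with 0.22, Junb with 0.22 and Fosb with 0.15. Of the 500 genes near Jun in level, 2.80% were as far from 0 as Jun, and of those near Nr4a1, 4.80%. For Fosb, Jund and Junb the share was 11.2%, 11.6% and 13.0%. For Fos, Atf3, Egr1 and Fosl2 the share was 23.4%, 25.6%, 47.0% and 49.4%. Chaperone genes of the kind that tissue digestion can induce lay to the same side, with 9 of 10 below 0, where 56.4% of all genes were. Of the 10, 2 were 1.5-fold lower, where 1.55% of all genes were. The summed level of the 10 was 10759 TPM in the alum-injected and 10615 TPM in the alum + KLH-immunized library. Markers of some other cells lay to the same side too. All 7 tested satellite glia markers were below 0 with a median of -0.040 and a sum of 1892 and 1767 TPM, as were all 3 tested of 7 endothelial markers with a median of -0.18 and a sum of 19.6 and 16.0 TPM. Of 5 red blood cell markers 1 was tested, Hba-a1 at 4.15 and 1.62 TPM with a log2 ratio of -0.97, and their sum was 5.35 and 1.95 TPM. Other marker lists went both ways, with 5 tested Schwann cell markers below 0 and 3 above. Of the tested fibroblast and mural markers 3 were below 0 and 1 above, and of the neuron markers 6 and 5. The part of the chaperone and marker genes in the members' ratios was not tested.

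**Figure D3:**
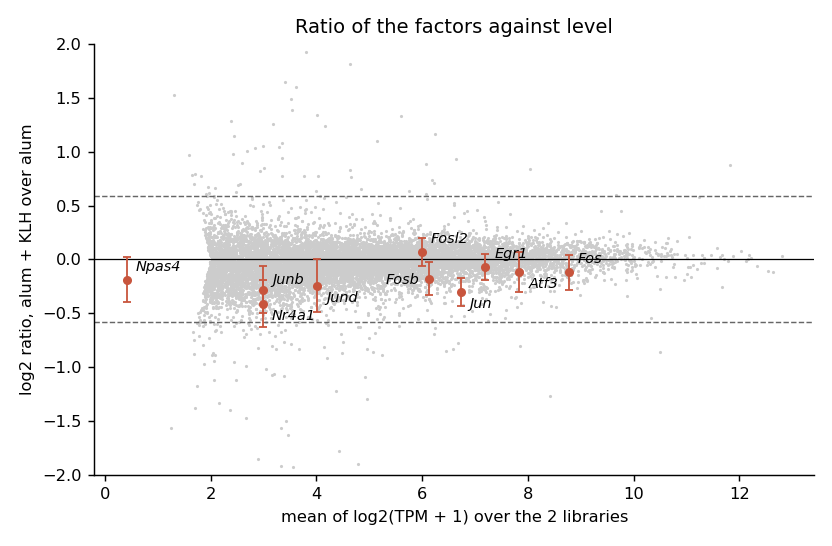
Log2 ratio of alum + KLH-immunized over alum-injected against the mean of log2(TPM + 1), with grey points for the 11648 genes above 3 TPM in at least 1 library (147 lie outside the axis), dashed lines at 1.5-fold and red points for the 10 members. Bars are the SD over the 500 genes closest in level, not a replicate error, and all members lie between the dashed lines, 9 of them below 0.

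The base composition of the transcripts moved with these ratios. Across the 11504 tested genes with a matched transcript, the log2 ratio and the GC content, the percentage of G and C bases, had a Spearman correlation of -0.46 and a Pearson correlation of -0.19. This is a correlation across genes of the same 2 libraries, which are not independent. Of the genes with 40 to 45% GC, 36.4% had a ratio below 0, and the median was 0.033. At 55 to 60% GC, 84.7% did, and the median was -0.16. All 9 members above 3 TPM were richer in GC than the median gene, at 48.7%.
The members ranged from 51.9% GC in Fos to 67.1% in Jund. Junb had 62.6%, Nr4a1 57.0%, Fosb 56.0%, Jun 55.5%, Egr1 53.6%, Fosl2 53.1% and Atf3 52.2%. When the median ratio of the 500 tested genes closest in GC content was subtracted, a step added after the data had been seen, the median of the members moved from -0.18 to -0.071, and 7 of the 9 stayed below 0. Jund moved from -0.24 to -0.034, Fosb from -0.18 to -0.039 and Junb from -0.28 to -0.071, while Fos and Atf3 came to -0.075, so that the JUN-type members no longer all lay below the FOS-type members. Nr4a1 was then at -0.25 and Jun at -0.17, still the lowest of the members. Egr1 came to 0.0041 and Fosl2 to 0.13. Fosb and Junb then lay within the SD of the genes near them in level, and the 3 members past it were Jun, Nr4a1 and, barely, Fosl2 in the higher direction. This SD was still that of the ratios without the GC step, so unlike quantities are compared here. Of the 500 genes closest to Nr4a1 in GC content, 5.20% had a ratio as low, and of those closest to Jun, 13.2%. The part of base composition in the ratios was not tested further.

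**Figure D4:**
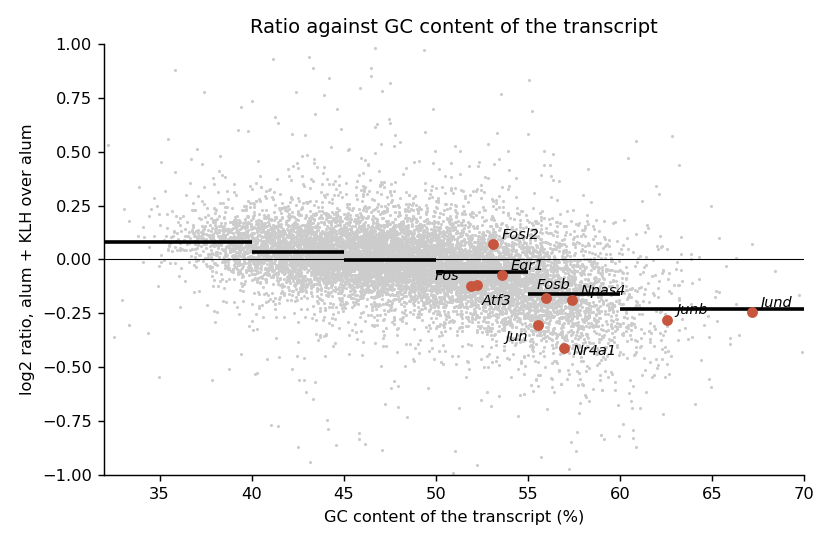
Log2 ratio of alum + KLH-immunized over alum-injected against the GC content of the transcript in percent, with grey points for the 11504 tested genes (194 lie outside the axes), black bars for the median in each GC class and red points for the 10 members. The black bars step down from 0.083 below 40% GC to -0.23 above 60%, and Jund, Junb, Fosb and Npas4 lie near their bar while Nr4a1 and Jun lie below and Fosl2 above.

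Other immediate early genes, 36 in all, gave the same count of 0 past the fold. Of the 34 above 3 TPM in at least 1 library, 0 were 1.5-fold higher and 0 were 1.5-fold lower. Over all genes compared these shares were 1.00% and 1.55%. A ratio below 0 was found in 20 of the 34, where 56.4% of all genes had one. The median of the 34 was -0.021, close to that of all genes. Tiparp was the highest of them at 303 TPM in the alum-injected and 300 TPM in the alum + KLH-immunized library. At the low end, Klf4, a zinc-finger factor, was at 19.0 and 13.3 TPM with a log2 ratio of -0.48. Myc was next at 21.4 and 15.4 TPM, with -0.46. At the high end stood Homer1, a scaffold gene of synapses, at 67.6 and 79.5 TPM, with 0.23. These genes were chosen as the ends of the range after their values were seen. With the GC neighbours subtracted, the median of the list was 0.052. Arc, the other classic marker of neuronal activity, was at 2.36 and 1.83 TPM, and it was below the limit together with Per1 and Npas4.

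**Figure D5:**
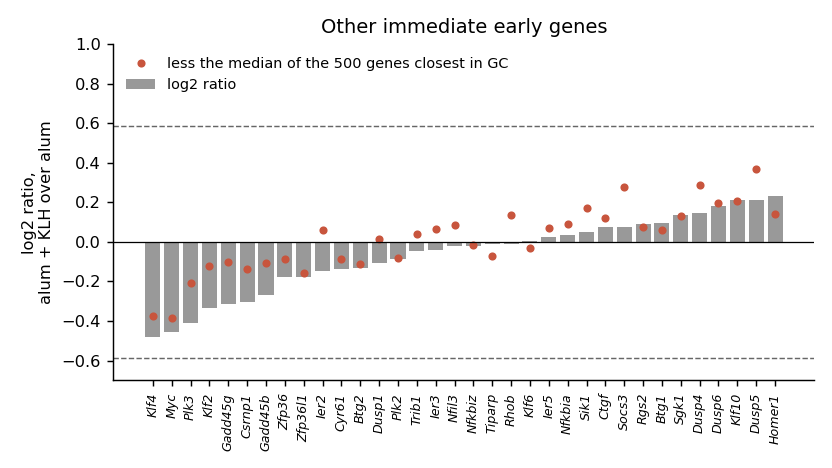
Log2 ratio of alum + KLH-immunized over alum-injected for the 34 other immediate early genes above 3 TPM in at least 1 library (grey bars) and the same less the median of the 500 genes closest in GC content (red points), with dashed lines at 1.5-fold. The bars run from -0.48 for Klf4 to 0.23 for Homer1, and neither bars nor points reach a dashed line.

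Kinases and cofactors that act on these promoters were examined as a list of 28 genes, of which 23 were above 3 TPM in at least 1 library. On the log2(TPM + 1) scale 0 were 1.5-fold apart, 14 were below 0, and the median was -0.035. Srf, which encodes the factor that binds the CArG box, was at 3.26 and 2.08 TPM, above the limit in the alum-injected library only. Its log2 ratio was -0.47, and with a pseudocount of 0.1 TPM, tried after the values were seen, it was past 1.5-fold at -0.62. Mapk9, which encodes a JUN kinase, was at 312 and 316 TPM, and Map3k12, which encodes the dual leucine zipper kinase upstream of JUN, at 13.6 and 14.1 TPM.

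The genes most like a member were sought by distance in log2(TPM + 1) over the 2 libraries. For Fos, the highest member, they included Cplx1 at a distance of 0.010 and Atp6v0c-ps2 at 0.028. For Nr4a1, the member with the largest ratio in size, they were Gpr137 at 0.048, G6pc3 at 0.049 and Cby1 at 0.052. With 2 libraries this likeness means only a like level in each.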

How the data were processed

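The 2 pooled mRNA libraries were 1 of alum-injected and 1 of alum + KLH-immunized mice. The authors trimmed the reads with cutadapt, quantified them with kallisto on the annotated mouse transcriptome (mm10) and deposited TPM per RefSeq transcript; tool versions are not given in the sources used here. The study's methods give a lower bound on the reads per sample, but the reads behind each value are not recoverable from TPM. No counting interval or detection floor was therefore computed. Here TPM was summed per gene symbol, genes above 3 TPM in at least 1 library (11648) were compared, and log2 ratios used a pseudocount of 1 TPM. With 1 library per group no test was made. The fold calculation was tested on simulated data with large known changes in well-expressed genes. Low genes, smaller folds and the GC step were not part of that simulation.

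The members, gene lists and limits were chosen with earlier results of these data known. Named genes are the members, the list genes past 1.5-fold, the highest gene of each list and the 3 genes closest to Fos and to Nr4a1; others were named after their values were seen, and some genes under this rule are not reported here. GC content, positions and shared 31-base words came from GENCODE M21, matched by RefSeq identifier for 98.8% of the genes compared, and promoter windows from RefSeq (GRCm38.p6, 9 of 10 members). Proteins were not compared, as no protein sequences were at hand. Alternatives covered pseudocounts, scaling, row choice, filters and, added later, GC content. Python 3.11.15, numpy 2.4.6, pandas 2.3.3 and matplotlib 3.10.9 were used.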

Additional observations from a re-analysis of the deposited data

How the results depend on the processing

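No paired analysis was possible because each group has 1 library, and for the same reason no replicate could be left out. The counts of members 1.5-fold higher and lower were 0 under all 9 alternatives of the ratio and also at 2-fold. The median log2 ratio over the members ranged from -0.26 relative to Hprt to -0.071 with the GC neighbours subtracted, and did not change sign. The sign of a member changed in 2 cases, Fosl2 at -0.013 relative to Hprt and Egr1 at 0.0041 with the GC neighbours subtracted. The ratio of Jun moved by more than its SD under the GC step, to -0.17. Among the other immediate early genes, the count at least 1.5-fold lower was 1 when only the highest transcript of each gene was kept, and this gene was Myc. With a pseudocount of 0.1 TPM, an alternative added after the data were seen, the count lower was 1 among the kinases and cofactors (Srf) and 1 among the later activity genes (Vgf), and at 0.5 TPM both counts were 0. With only the highest transcript of each gene kept, the share of Jund in the AP-1 total was 1.15% in the alum-injected library. It was 1.06% in the alum + KLH-immunized library, since the value of Jund was split over equal rows. The number of members above the limit was 9 at a limit of 1 TPM and 7 at 10 TPM in each library. Low genes such as Npas4 cannot be read closely without read counts.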

Other observations

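Genes that respond later to neuronal activity, a list of 12, gave no value past 1.5-fold on the log2(TPM + 1) scale among the 8 above 3 TPM, with a median log2 ratio of 0.0028. Nrn1, which encodes neuritin, was the highest at 1319 TPM in the alum-injected and 1307 TPM in the alum + KLH-immunized library, and Bdnf, a neurotrophin gene, was at 85.3 and 88.3 TPM. Vgf was at 17.3 and 11.5 TPM, a log2 ratio of -0.56, and passed the fold at -0.59 with a pseudocount of 0.1 TPM.

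Of 20 genes known to respond to nerve injury, 14 were above 3 TPM. Of these 1 was 1.5-fold lower, where 1.55% of all genes compared were, and 0 were 1.5-fold higher. A log2 ratio below 0 was found in 10 of the 14, where 56.4% of all genes had one. The median of the 14 was -0.14, against -0.020 over all genes and -0.18 over the members. With the GC neighbours subtracted this order turned, with a median of -0.11 over the 14 and -0.071 over the members. Hspb1, a small heat-shock protein gene, was at 40.5 TPM in the alum-injected and 22.3 TPM in the alum + KLH-immunized library, a log2 ratio of -0.83. Gap43, a growth cone gene, was the highest at 456 and 442 TPM. The neuropeptide genes Gal and Nts were at 45.6 and 30.7 TPM and at 44.5 and 32.6 TPM. Sprr1a, a gene strongly tied to axon regrowth, was below the limit at 2.50 and 0.401 TPM. Il6 and Ccl2, named after their values were seen, were at 108 and 126 TPM and at 247 and 286 TPM in preparations whose macrophage markers were all below 3 TPM.

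Chaperone genes that tissue digestion can turn on were abundant, with Hspa8 at 4511 and 4459 TPM. Of the 10, 9 had a ratio below 0, where 56.4% of all genes compared had one. The median log2 ratio of the 10 was -0.11, and -0.098 with the GC neighbours subtracted. At least 1.5-fold lower were 2, where 1.55% of all genes were, both of them heat-inducible HSP70 genes. Hspa1a was at 22.5 and 12.4 TPM, and Hspa1b at 34.2 and 21.8 TPM. These are near-identical copies, so their split is uncertain. The log2 ratios were -0.81 and -0.63, and no library of undigested ganglia was analysed here.

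The transcript rows of Myc show how a row can mislead. Its 4 rows form 2 pairs of equal values, 1 pair at 9.91 TPM per row in the alum-injected and 0.0788 TPM in the alum + KLH-immunized library, the other at 0.810 and 7.60 TPM, whereas the sums were 21.4 and 15.4 TPM.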
